A study of Mus musculus with 24 samples.

Results

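The 40 genes described here act in mitosis and the G2/M transition and were measured in cultured mouse pancreatic stellate cells (PSC), the fibroblast-like cells of the pancreas that become cancer-associated fibroblasts in pancreatic ductal adenocarcinoma. They were taken as a fixed list of symbols, and all 40 were found among the 53801 genes of the deposited expression table. RNA-seq of poly(A) RNA had been performed on PSC grown alone or in contactless co-culture with KPC cells, a tumour cell line from a genetically engineered mouse model of pancreatic cancer. PSC came from pooled pancreata of young adult wild-type C57BL/6J mice of both sexes and were used at an early passage.

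The 8 groups held 3 libraries each. In the standard model, which the labels call distant paracrine, KPC cells grew on the floor of the well and PSC on the membrane of an insert above them, and the groups were control PSC at 24 h, co-cultured PSC at 24 h, control PSC at 72 h and co-cultured PSC at 72 h. In the inverse model, called close paracrine, KPC cells grew on the underside of the same membrane, and the groups were again control and co-cultured PSC at 24 h and at 72 h. All groups, controls included, were kept in Advanced DMEM/F-12 with serum, which differs from the medium in which PSC had been expanded and was not renewed during the experiment. KPC cells and PSC were together for longer in the inverse than in the standard model, because KPC cells had to be attached before the PSC were seeded. The KPC cells were a single line, and library RNA input was 450 ng in the standard and 120 ng in the inverse model. Model, RNA input, age of the medium and time together thus cannot be told apart. Results are therefore given within each model.

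A cell enters mitosis when cyclin B binds the kinase CDK1 and CDC25 phosphatases remove the inhibitory phosphates from it. Polo-like and Aurora kinases then build the spindle, the spindle checkpoint holds the cell until every kinetochore is attached, and CDC20 with the anaphase-promoting complex degrades securin and the cyclins so that chromatids part and the cell divides. Most of these genes are transcribed only in late S, G2 and M phase, under the DREAM repressor complex in resting cells and under B-MYB and FOXM1 in cycling cells. Their mRNA in a bulk sample is therefore commonly read as a measure of cycling cells. In bulk samples, fewer cycling cells and less of these mRNAs per cell cannot be told apart.

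Each library counted between 15932737 and 24798761 fragments (median 18860269), recovered from the steps between low values. Levels are given as FPKM (fragments per kilobase of transcript, scaled to the library's total), a unit per length that lets genes be set side by side. The stellate and fibroblast markers Acta2, Vim, Des, Col1a1, Col1a2, Pdgfrb and Pdgfra were expressed in every group, while Gfap, also a stellate cell marker, was at or near 0. The 4 endothelial markers summed to at most 2.44 FPKM in any library. Before any comparison, replicate 1 of the standard model stood apart in all 4 of its libraries. Of the 39 members above 1 FPKM in at least 3 of the 24 libraries, 38 were highest in replicate 1 among the standard controls at 24 h, 37 in the co-cultures at 24 h, 38 in the controls at 72 h and 37 in the co-cultures at 72 h. The median ratio of replicate 1 to the mean of replicates 2 and 3 was 4.13, 3.31, 6.56 and 2.57 in these groups, and lay between 0.72 and 1.1 in the 4 inverse groups. Each median of a comparison of 2 standard groups is therefore also given without replicate 1. The authors name 3 biological replicates per group. Neither they nor the labels say whether these came from separate cultures or pools of animals, so p-values measure only the spread between these libraries.

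**Figure D1:**
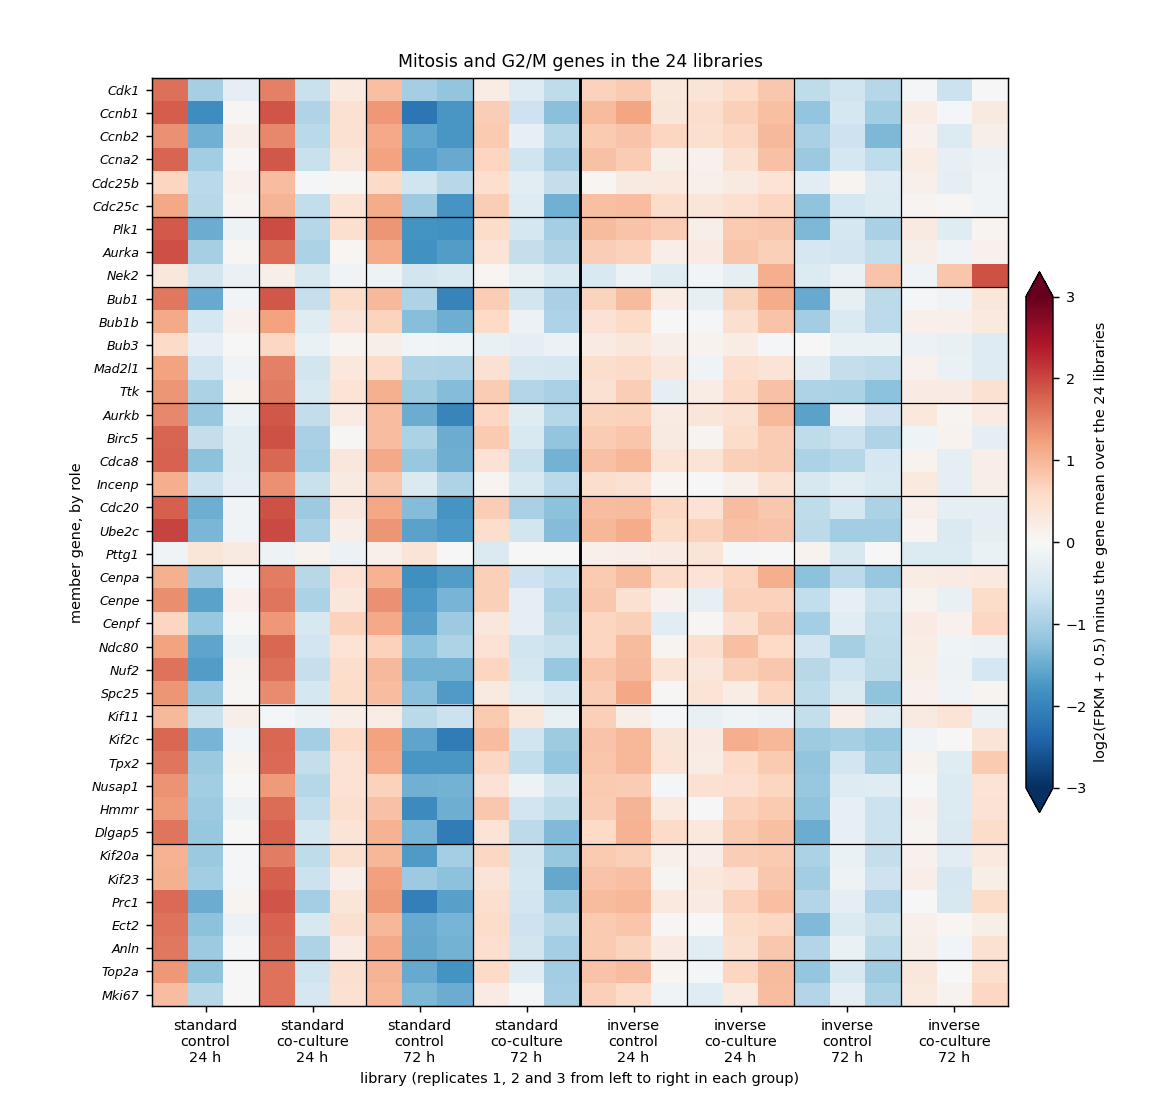
Each row is 1 of the 40 genes, ordered by role (lines separate the roles), and each column 1 library. The colour is log2(FPKM + 0.5) minus the mean of that gene over the 24 libraries. In nearly all rows the first library of each standard group is the reddest of its group, the inverse controls at 72 h are bluer than the inverse controls at 24 h, and the rows of Bub3 and Pttg1 stay pale throughout.

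Levels differed widely between members and between libraries. Over the 24 libraries Top2a, the topoisomerase that untangles sister chromatids, had the highest mean at 52.05 FPKM, followed by Cdc20 (36.5 FPKM), the activator of the anaphase-promoting complex, and Anln (35.95 FPKM), the anillin of the cleavage furrow. The lowest were Nek2, a centrosomal kinase, between 0 and 2.28 FPKM, and Kif11, the motor that separates spindle poles, between 0.0226 and 1.30 FPKM. These latter genes did not pass the filter of 1 FPKM in 3 libraries of any comparison of 2 groups, which left 38 members for testing. The ratio of the highest to the lowest library was 11.7 in the median over the same 39 members, and 38 of them were highest in a replicate 1 library of the standard model. Within the inverse model alone the median ratio was 4.28.

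Only 2 members varied by less than a factor of 3. Bub3, which carries BUB1 and BUBR1 to kinetochores, ranged over a factor of 2.05, from 21.9 to 44.8 FPKM. Pttg1, the securin that guards separase, ranged over a factor of 1.87, from 9.55 to 17.9 FPKM. Pttg1 was also an exception to the pattern of replicate 1, and in the standard controls the only one. Its standard control values at 24 h were 12.6, 17.4 and 16.3 FPKM in replicates 1, 2 and 3, so that replicate 1 was the lowest. In the standard co-cultures at 72 h Bub3 was another exception, with replicate 3 the highest. Next in order came Cdc25b, a phosphatase that activates cyclin-CDK complexes, with a factor of 3.58.

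The counting is not stated to use strand, so fragments from exon bases that lie opposite another gene cannot be assigned with certainty. This applied to 29.3% of the exon bases of Kif20a (opposite Cdc23), 22.8% of Ube2c (opposite Tnnc2), 12.7% of Cdc25c (opposite Gm3550), 12.5% of Ccna2 (opposite Exosc9) and 11.1% of Prc1 (opposite Rccd1). Ccnb1 and Ccnb2 have pseudogenes named after them in the annotation, which were listed at no more than 1.98 and 1.79 FPKM.

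The promoters of the members are described next, since the list did not use sequence. Promoters, taken from RefSeq (build GRCm38.p6) as 250 bases before to 50 bases after the transcription start, were found for 33 of the 40 members, 3 of which have 2 annotated starts. Nothing was matched for Aurkb, Dlgap5, Incenp, Kif20a, Ccna2, Tpx2 and Cdc25c. The letters of 3 elements were searched on both strands: TTTGAA, the cell cycle genes homology region (CHR) through which DREAM and the B-MYB complex bind, its variant TTTAAA, and CCAAT, the site of the activator NF-Y. On the opposite strand TTTGAA is read as TTCAAA and CCAAT as ATTGG, while the variant is its own reverse. Different elements can share no more than an end letter. TTTGAA was present in 23 of the 33 members (69.7%), against 20.2% of 27025 genes with a promoter and 14% of the 9460 of these that were above 1 FPKM in at least 3 of the inverse libraries at 72 h. The variant TTTAAA was present in 9 of 33 (27.3%, against 14.9% and 10.7%). CCAAT was present in 25 of 33 (75.8%, against 41.1% and 43.2%). Both a CHR of either form and a CCAAT were present in 22 of 33 members (66.7%), against 12.2% of all genes and 9.24% of the expressed ones. Of the 33 TTTGAA sites in members, 24 (72.7%) began between 60 bases before and 50 bases after the start, a window chosen after the positions were seen, against 28.2% of the 6737 sites in all promoters. A site within reach of more than 1 annotated start is counted at each start, in members and in all promoters alike. These are matches of letters and not measured binding sites.

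The following stretches cover the 150 bases before to the 50 bases after the start, in lower case with each match to an element, on either strand, in capitals. The first 4 belong to the members with the largest rises in inverse co-culture at 72 h (given below) for which a promoter was matched, and Ccnb1 and Plk1 are usual markers of G2/M. Coordinates are those of GRCm38.p6.
Ttk, chr9:83834539-83834738, forward strand: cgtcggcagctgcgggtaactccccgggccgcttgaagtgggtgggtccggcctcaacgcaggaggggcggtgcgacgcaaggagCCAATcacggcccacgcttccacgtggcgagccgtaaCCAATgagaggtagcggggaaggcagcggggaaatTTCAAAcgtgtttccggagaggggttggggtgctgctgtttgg
Cenpa, chr5:30666736-30666935, forward strand: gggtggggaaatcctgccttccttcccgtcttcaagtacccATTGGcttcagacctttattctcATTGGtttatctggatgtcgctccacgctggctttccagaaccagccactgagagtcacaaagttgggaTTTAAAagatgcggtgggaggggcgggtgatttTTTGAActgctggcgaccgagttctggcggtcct
Top2a, chr11:99024140-99024339, reverse strand: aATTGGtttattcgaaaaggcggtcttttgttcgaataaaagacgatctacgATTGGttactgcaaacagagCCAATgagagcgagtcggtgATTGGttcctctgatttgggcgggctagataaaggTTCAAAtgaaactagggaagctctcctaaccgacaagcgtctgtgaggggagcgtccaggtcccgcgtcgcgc
Kif2c, chr4:117178723-117178922, reverse strand: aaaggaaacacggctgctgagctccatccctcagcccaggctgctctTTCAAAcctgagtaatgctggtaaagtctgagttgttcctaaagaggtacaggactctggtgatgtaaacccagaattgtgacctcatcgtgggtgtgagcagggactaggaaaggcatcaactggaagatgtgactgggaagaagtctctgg
Ccnb1, chr13:100786437-100786636, reverse strand: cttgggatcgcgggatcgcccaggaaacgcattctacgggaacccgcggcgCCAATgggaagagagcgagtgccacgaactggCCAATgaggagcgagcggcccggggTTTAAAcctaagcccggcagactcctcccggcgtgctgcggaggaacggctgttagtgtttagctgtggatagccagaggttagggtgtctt
Plk1, chr7:122159285-122159484, forward strand: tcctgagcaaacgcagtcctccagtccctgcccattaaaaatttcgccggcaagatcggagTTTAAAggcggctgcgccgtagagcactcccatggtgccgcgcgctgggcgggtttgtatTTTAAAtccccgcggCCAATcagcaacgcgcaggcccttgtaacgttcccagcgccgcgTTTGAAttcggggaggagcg
The next 3 belong to the members with the smallest differences in that comparison.
Bub3, first annotated start, chr7:131560220-131560419, forward strand: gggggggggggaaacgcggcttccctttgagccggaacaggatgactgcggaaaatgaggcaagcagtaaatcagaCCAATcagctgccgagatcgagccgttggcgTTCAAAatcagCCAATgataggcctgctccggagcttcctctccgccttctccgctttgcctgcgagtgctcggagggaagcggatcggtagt
Cdc25b, chr2:131186798-131186997, forward strand: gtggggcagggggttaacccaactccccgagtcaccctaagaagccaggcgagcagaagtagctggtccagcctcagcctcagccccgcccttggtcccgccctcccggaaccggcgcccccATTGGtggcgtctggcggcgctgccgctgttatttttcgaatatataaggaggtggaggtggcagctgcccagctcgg
Pttg1, chr11:43425932-43426131, reverse strand: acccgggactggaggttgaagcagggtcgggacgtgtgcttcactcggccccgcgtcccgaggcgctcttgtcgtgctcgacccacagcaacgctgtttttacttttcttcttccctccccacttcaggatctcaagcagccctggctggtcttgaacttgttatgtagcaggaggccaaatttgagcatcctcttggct
Neither CHR form was found in the Cdc25b and Pttg1 promoters, and Pttg1 also had no CCAAT. Bub3 carried a CHR between a pair of CCAAT elements, and Kif2c a CHR with no CCAAT. The RefSeq starts shown for Kif2c and Pttg1 lie inside the genes as the counting annotation draws them. For both, the 5′ end given there is upstream of all 250 bases searched. The starts shown for Cenpa, Ccnb1 and Bub3 also lie downstream of that end, but within 250 bases of it. Nothing follows from a match, or from its absence in this window, about the binding of a factor.

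In control PSC of the inverse model, nearly the whole set fell between 24 h and 72 h. Of the 38 members tested, 36 were lower at 72 h and none was higher (limma, adjusted p under 0.05 over all 13092 genes tested), against 9.05% of all genes that fell in this comparison. The median log2 fold change of the members was -1.37, and that of all genes was 0.04. In 37 of 38 members every control library at 72 h was below every control library at 24 h, which held for 16.9% of all genes. Cdc25b was the exception.

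The 5 largest falls were those of Ube2c, the ubiquitin-conjugating enzyme of the anaphase-promoting complex (log2 fold change -1.84, SE 0.16, adjusted p = 0.0013), Cenpa, the centromeric histone (-1.83, SE 0.16, adjusted p = 0.0012), Plk1, polo-like kinase 1 (-1.81, SE 0.19, adjusted p = 0.0018), Kif2c, the microtubule-depolymerising kinesin MCAK (-1.81, SE 0.17, adjusted p = 0.0017), and Ccnb1, cyclin B1 (-1.75, SE 0.23, adjusted p = 0.0028; all adjusted p by limma). At the other end stood Pttg1 (-0.34, SE 0.16, adjusted p = 0.16) and Cdc25b (-0.42, SE 0.15, adjusted p = 0.088), neither of which passed the test, and Bub3, which did (-0.38, SE 0.10, adjusted p = 0.035).

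By library, Cdk1, the mitotic kinase itself, had 41.5, 44.3 and 32.6 FPKM in the inverse controls at 24 h and 14.9, 16.6 and 13.9 FPKM at 72 h. Its partner Ccnb1 had 29.2, 34.04 and 19.2 FPKM and then 6.28, 10.1 and 6.88 FPKM. The 3 early libraries of both genes were all above the 3 late ones, and the ratio of 72 h to 24 h on the scale of FPKM + 0.5 was 0.393 for Cdk1 and 0.297 for Ccnb1. Plk1 had 32.5, 30.7 and 28.6 FPKM at 24 h and 6.26, 11.3 and 8.26 FPKM at 72 h. Aurkb, the kinase of the chromosomal passenger complex, had 20.9, 21.3 and 15.2 FPKM and then 3.91, 11.4 and 8.18 FPKM. Both kinases were separated by time, with the second late library the highest of its group.

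Of the genes that act at the kinetochore and in anaphase, Cdc20 had 54.3, 54.9 and 44.2 FPKM in the controls at 24 h and 16.7, 19.5 and 14.4 FPKM at 72 h. Cenpa had 28.5, 32.1 and 24.6 FPKM and then 6.61, 9.26 and 7.14 FPKM. Every late library of both genes was far below the lowest early one. Tpx2, which activates Aurora A on the spindle, had 34.2, 38.4 and 25.3 FPKM at 24 h and 8.02, 12.6 and 9.24 FPKM at 72 h. Anln had 51.5, 47.7 and 35.2 FPKM and then 16.1, 25.9 and 16.8 FPKM. The third early library was the lowest of its group for all of Cdc20, Cenpa, Tpx2 and Anln, and still above every late library.

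Top2a had 77.8, 81.7 and 45.02 FPKM at 24 h and 18.9, 30.9 and 20.4 FPKM at 72 h, and Mki67, the Ki-67 antigen that coats mitotic chromosomes, had 19.5, 17.7 and 10.7 FPKM and 6.07, 9.60 and 5.76 FPKM. Both fell without overlap (log2 fold change -1.51, SE 0.25, adjusted p = 0.0053 for Top2a and -1.10, SE 0.25, adjusted p = 0.019 for Mki67, limma). Bub3 had 34.4, 36.6 and 32.6 FPKM and 29.2, 25.1 and 25.2 FPKM, a small but complete separation. Pttg1 had 15.2, 15.7 and 16.1 FPKM and 14.5, 9.55 and 13.3 FPKM, so that its groups did not overlap either, but with a gap narrow against the spread of the later group.

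By role, the fall covered all 5 spindle checkpoint genes, all 4 members of the chromosomal passenger complex, all 6 centromere and kinetochore genes, all 5 tested spindle motors and microtubule-binding proteins, all 5 genes of the central spindle and cytokinesis, both tested mitotic kinases and both genes of chromosome structure. It covered 5 of 6 among the cyclins, Cdk1 and the CDC25 phosphatases, and 2 of 3 among the anaphase-promoting complex cofactors and securin. When all 24 libraries were put into 1 fit, no member was called in this comparison, and the number called ranged from 25 to 36 when single libraries were left out.

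Other cell types' markers moved in the same control libraries. The 4 adipocyte markers Adipoq, Plin1, Fabp4 and Cfd all rose from 24 h to 72 h, and their summed level went from 163, 158 and 244 FPKM to 849, 399.7 and 743 FPKM. Of 8 macrophage markers, 7 were tested and 5 rose, and their sum went from 77.3, 83.4 and 74.8 FPKM to 214, 126 and 251 FPKM. Over all genes, 9.05% fell in this comparison, and these falls were 47.1% of the calls, the rest being rises. Of the fibroblast markers, Acta2, Vim and Des fell, while Pdgfra rose. The part of these markers in the fall of the mitotic genes was not tested.

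**Figure D2:**
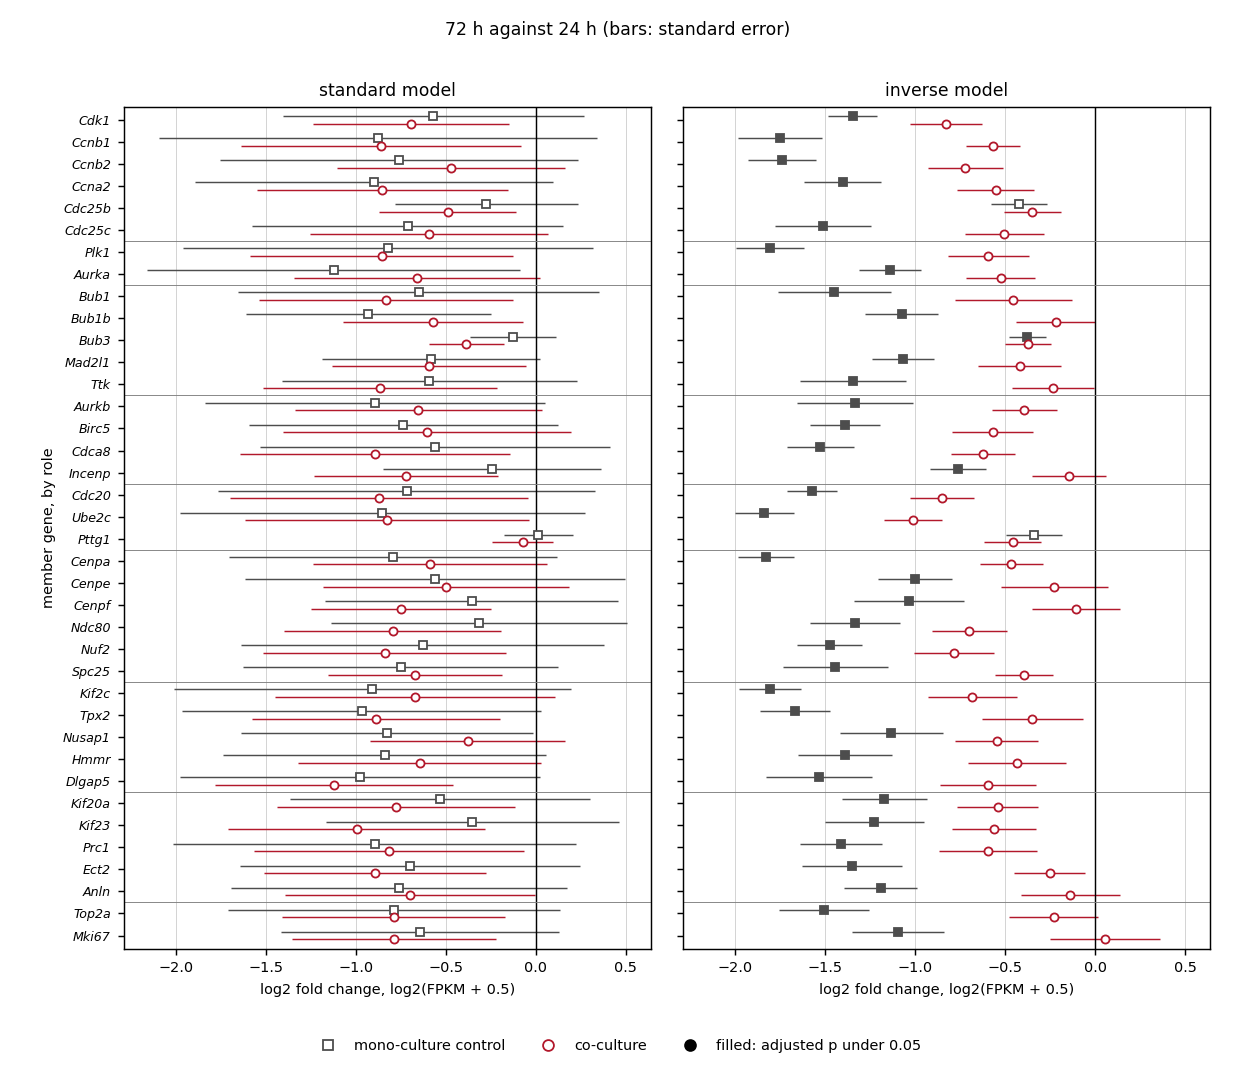
The log2 fold change of 72 h against 24 h is plotted for the 38 tested members (rows, by role), with squares for mono-culture controls and circles for co-cultures and bars for the standard error. In the right panel 36 of the 38 control squares are filled, which marks adjusted p under 0.05, and no other symbol in either panel is filled.

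At 24 h no difference between co-cultured and control PSC of the inverse model was detected in the set. No member was called (limma, 38 tested), none had an unadjusted p under 0.05, and voom on the recovered fragments called 0 as well, against 2.47% of all 12827 genes called in this comparison. The median log2 fold change of the members was -0.10, and that of all genes -0.06. The values ran from -0.30, SE 0.20, adjusted p = 0.56 for Cdc25c, the phosphatase that starts mitosis, to 0.24, SE 0.29, adjusted p = 0.77 for Ttk, the checkpoint kinase MPS1. The 3 members nearest to no difference were Cdk1 (-0.01), Kif20a (0.03) and Nusap1 (0.03). With a median standard error of 0.21 on the log2 scale, small differences were not detectable with these libraries. The median turned to 0.02 without control replicate 2 and to 0.06 without co-culture replicate 1.

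Library by library, co-cultured PSC at 24 h spread around the controls. Top2a had 41.6, 67.6 and 83.3 FPKM, Mki67 8.91, 14.4 and 22.6 FPKM and Cdk1 33.4, 38.5 and 45.4 FPKM. Ccnb1 had 21.6, 24.5 and 27.9 FPKM, and Plk1 18.9, 28.9 and 29.7 FPKM. In each of these 5 genes the first library was the lowest and the third the highest, and its range overlapped that of the controls. Aurkb had 16.8, 17.9 and 25.9 FPKM, Cdc20 38.3, 54.6 and 49.8 FPKM and Cenpa 21.9, 25.9 and 35.00 FPKM. Tpx2 had 22.1, 28.4 and 32.9 FPKM, Anln 23.9, 41.6 and 52.8 FPKM, Bub3 31.2, 33.9 and 28.5 FPKM and Pttg1 17.7, 13.2 and 13.6 FPKM. None of these groups separated from its control. The second library of this group had 45.7 FPKM summed over 8 epithelial and cancer cell markers, against 3.38 and 8.29 FPKM in the others, and without any 1 library of this comparison no member was called either. The part of that library's markers in the values was not tested.

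At 72 h the inverse co-culture stood above its control across most of the set. Of the 38 members tested, 18 rose and none fell (limma, adjusted p under 0.05), against 3.27% of all 13066 genes that rose in this comparison. The median log2 fold change was 0.75 over the members and -0.16 over all genes, and 36 of 38 members had a positive value. In 27 members all co-culture libraries were above all control libraries, against 9.53% of all genes. These control libraries are the same ones whose levels had fallen since 24 h, so the present comparison and the change in controls share them and are not independent.

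The genes that rose came from every role. Among the cyclins these were Ccnb1 (1.06, SE 0.19, adjusted p = 0.015), Ccnb2 (0.95, SE 0.24, adjusted p = 0.043) and Ccna2, cyclin A2 (0.74, SE 0.20, adjusted p = 0.047; log2 fold changes with adjusted p by limma here and below). Both tested mitotic kinases rose, Plk1 by 0.95 and Aurka, Aurora A, by 0.67 on the log2 scale. Of the spindle checkpoint, Ttk (1.35, SE 0.23, adjusted p = 0.013) and Bub1b, which encodes BUBR1 (0.96, SE 0.18, adjusted p = 0.016), rose. At the centromere and kinetochore, Cenpa (1.30, SE 0.15, adjusted p = 0.0046), Cenpf (1.02, SE 0.24, adjusted p = 0.034) and Spc25 of the NDC80 complex (0.84, SE 0.21, adjusted p = 0.042) rose. Cdca8, the borealin of the passenger complex, rose by 0.77 and Ube2c by 0.75. The remainder were Kif2c (1.16, SE 0.17, adjusted p = 0.0084) and Tpx2 (1.09, SE 0.29, adjusted p = 0.049) on the spindle, Ect2, which activates RhoA at the cleavage site (0.94, SE 0.24, adjusted p = 0.040), Anln (0.82, SE 0.21, adjusted p = 0.044), Top2a (1.18, SE 0.20, adjusted p = 0.013) and Mki67 (1.04, SE 0.22, adjusted p = 0.025). The 5 largest were those of Ttk, Cenpa, Top2a, Kif2c and Tpx2.

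The values behind these calls were as follows. Top2a had 18.9, 30.9 and 20.4 FPKM in the 3 controls and 54.4, 43.7 and 60.8 FPKM in the 3 co-cultures. Mki67 had 6.07, 9.60 and 5.76 FPKM in controls and 14.4, 12.5 and 18.1 FPKM in co-cultures. In both, the second control library was the highest control and the second co-culture library the lowest co-culture, and the groups did not overlap. Cenpa had 6.61, 9.26 and 7.14 FPKM in controls and 18.9, 19.3 and 20.1 FPKM in co-cultures, the closest agreement between co-culture libraries among the genes given here by library. Ccnb1 had 6.28, 10.1 and 6.88 FPKM and 17.3, 14.3 and 17.8 FPKM, and Plk1 had 6.26, 11.3 and 8.26 FPKM and 20.2, 12.8 and 17.8 FPKM. Both were separated, Plk1 by the gap between 11.3 FPKM in the second control and 12.8 FPKM in the second co-culture. Tpx2 had 8.02, 12.6 and 9.24 FPKM and 20.4, 14.6 and 32.98 FPKM, and Anln had 16.1, 25.9 and 16.8 FPKM and 33.8, 28.2 and 41.3 FPKM. The third co-culture library was the highest for both and the margin between the groups was narrow.

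Other members had similar differences that did not pass the test. Aurkb had 3.91, 11.4 and 8.18 FPKM in controls and 16.1, 13.6 and 15.3 FPKM in co-cultures, with no overlap, and a log2 fold change of 1.01, SE 0.33, adjusted p = 0.080. Its first control library was far below the others. Cdc20 had 16.7, 19.5 and 14.4 FPKM and 31.6, 23.02 and 23.7 FPKM (0.61, SE 0.17, adjusted p = 0.051), also without overlap. Cdk1 had 14.9, 16.6 and 13.9 FPKM and 24.3, 16.1 and 25.8 FPKM (0.51, SE 0.19, adjusted p = 0.11), and here the second co-culture library lay within the control range. The checkpoint kinase Bub1 (0.90, SE 0.32, adjusted p = 0.098), the spindle protein Dlgap5 (0.86, SE 0.36, adjusted p = 0.15) and the survivin gene Birc5 (0.66, SE 0.19, adjusted p = 0.059) likewise fell short.

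The 3 smallest differences were those of Bub3, Cdc25b and Pttg1. Bub3 had 29.2, 25.1 and 25.2 FPKM in controls and 25.5, 24.6 and 21.9 FPKM in co-cultures (-0.14, SE 0.12, adjusted p = 0.44). Pttg1 had 14.5, 9.55 and 13.3 FPKM and 10.1, 10.1 and 11.6 FPKM (-0.21, SE 0.17, adjusted p = 0.45). Both ranges overlapped, as did those of Cdc25b (0.14, SE 0.18, adjusted p = 0.62). In the controls over time their values had been -0.38, -0.42 and -0.34, as given above, with the same control libraries at 72 h.

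How many members passed the test depended on single libraries. Without control replicate 1 there were 3 members called, without control replicate 3 there were 2, without co-culture replicate 1 there were 2 and without co-culture replicate 3 there were 8, while 14 and 17 were called without replicate 2 of the controls and of the co-cultures. With no filter on low values 6 were called, with a replicate block 7, and with all 24 libraries in 1 fit, whose spread is set in part by the standard model, none. Across the fits without 1 library the median log2 fold change of the members lay between 0.64 and 0.91. Scaling each library by the median of gene ratios moved the median of all genes by 0.16 and turned 427 rises and 1251 falls over all genes into 752 and 675. It gave 21 members that rose and none that fell.

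**Figure D3:**
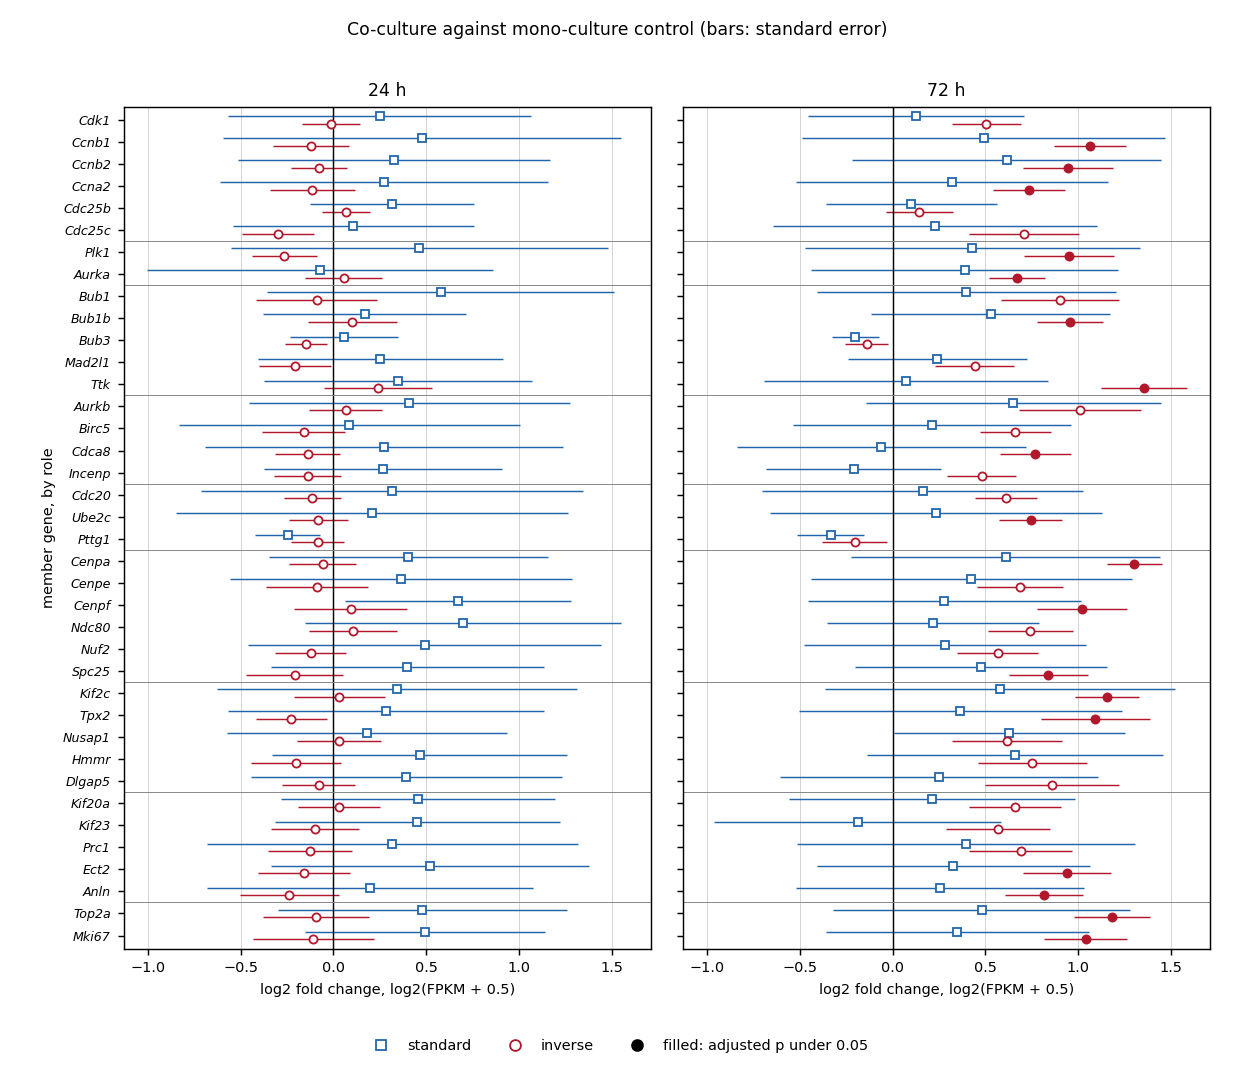
The log2 fold change of co-culture against control is plotted for the 38 tested members (rows, by role) at 24 h and 72 h, with squares for the standard and circles for the inverse model and bars for the standard error. Only inverse circles at 72 h are filled (adjusted p under 0.05, 18 members), and Bub3 and Pttg1 are the only members below 0 in both models at 72 h, with open symbols.

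In co-cultured PSC of the inverse model itself, levels at 72 h were mostly lower than at 24 h, but no member passed the test. None of 38 was called (limma, voom also 0, smallest adjusted p = 0.13), against 0.00784% of all genes called. The median log2 fold change was -0.49 over the members and -0.07 over all genes. Ube2c had the largest value (-1.01, SE 0.16, adjusted p = 0.13), followed by Cdc20 (-0.85, SE 0.18, adjusted p = 0.14), Cdk1 (-0.83, SE 0.20, adjusted p = 0.16), Nuf2 of the NDC80 complex (-0.79, SE 0.22, adjusted p = 0.20) and Ccnb2 (-0.72, SE 0.21, adjusted p = 0.20). Mki67 (0.05, SE 0.31, adjusted p = 0.95), Cenpf (-0.11, SE 0.24, adjusted p = 0.86) and Anln (-0.14, SE 0.28, adjusted p = 0.84) were nearest to no change. In 18 members the groups did not overlap, with the later one lower, against 13.9% of all genes.

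Whether the co-culture effect in the inverse model differed between the times was tested as an interaction over its 12 libraries. No member passed (limma, 38 tested, voom also 0, smallest adjusted p = 0.078), nor did any of the 13722 genes tested (0% called). The median difference was 0.88 on the log2 scale over the members, later minus earlier, and -0.09 over all genes. Of the 38 members, 37 had a positive difference. Cenpa had the largest difference (1.36, SE 0.24, adjusted p = 0.078), then Tpx2 (1.32, SE 0.38, adjusted p = 0.26), Top2a (1.28, SE 0.40, adjusted p = 0.32), Plk1 (1.21, SE 0.32, adjusted p = 0.22) and Ccnb1 (1.18, SE 0.30, adjusted p = 0.22). Bub3 (0.0048, SE 0.15, adjusted p = 1), Cdc25b (0.08, SE 0.22, adjusted p = 0.93) and Pttg1 (-0.12, SE 0.23, adjusted p = 0.88) were nearest to 0. Without replicate 3 of the co-culture at 24 h, or without replicate 2 of the control at 72 h, 1 member was called.

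**Figure D4:**
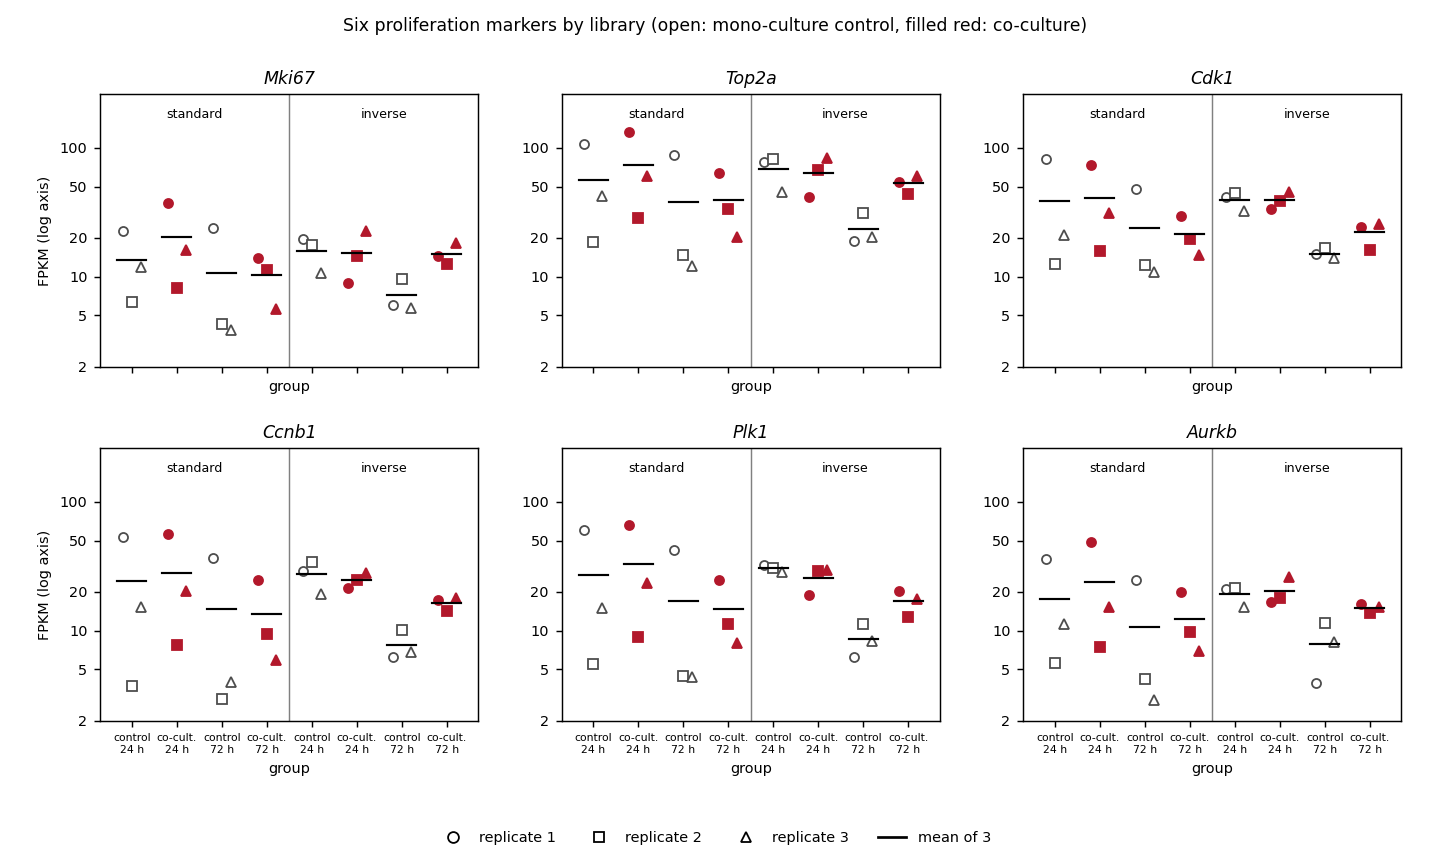
FPKM on a log axis is plotted for 6 usual proliferation markers in the 8 groups, with a different symbol for each replicate number, open for controls and red for co-cultures, and a line at the mean of the 3 libraries. In each standard group the circle of replicate 1 is the highest symbol, and in the inverse groups at 72 h the co-culture symbols lie above the controls except for the second co-culture library of Cdk1.

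In the standard model the spread between replicates exceeded the difference between groups. Co-culture at 24 h gave no call among 38 members (limma, 0% of all 12859 genes called, no member with an unadjusted p under 0.05, voom also 0), with a median log2 fold change of 0.33 and a median standard error of 0.84. Top2a had 107, 18.4 and 42.3 FPKM in control replicates 1, 2 and 3 and 133, 28.5 and 60.6 FPKM in the co-cultures of the same numbers. Mki67 had 22.6, 6.33 and 11.8 FPKM in controls and 37.04, 8.12 and 16.2 FPKM in co-cultures. In both, each co-culture was above the control of its own number while the groups as a whole overlapped completely. Cdk1, with 81.6, 12.6 and 21.1 FPKM in controls and 74.2, 15.8 and 31.5 FPKM in co-cultures, was lower in replicate 1 and higher in replicates 2 and 3.

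The same-numbered libraries of the standard model deviated together, and comparing them number by number narrowed the error. Of the 38 members, 27 were higher in co-culture in 3 of 3 numbers at 24 h, against 17.5% of all genes, and 1, Pttg1, was lower in 3 of 3. The median difference within numbers 1, 2 and 3 was 0.15, 0.38 and 0.42. When the replicate number entered the fit as a block, the members had a median standard error of 0.13, none was called, and the smallest adjusted p was 0.065, for Top2a (log2 fold change 0.48), while 157 of all genes were called. The largest values in the fit without the block were those of Ndc80 (0.70, SE 0.85, adjusted p = 1), a microtubule-binding kinetochore protein, and Cenpf (0.67), and the smallest those of Bub3 (0.06), Aurka (-0.07) and Birc5 (0.08). Without replicate 1 of both groups the median was 0.40 and no member was called. Leaving out a single library turned the median to -0.24 (control replicate 2) or -0.23 (co-culture replicate 1), or raised it to 1.02 (control replicate 1) or 0.95 (co-culture replicate 2). Each of these fits breaks a same-numbered pair. The sign of the unpaired group means thus depended on single libraries, while the medians within numbers 1, 2 and 3 were all positive.

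Other markers of the set behaved alike at 24 h. Ccnb1 had 53.7, 3.73 and 15.2 FPKM in controls and 56.00, 7.71 and 20.4 FPKM in co-cultures, Plk1 had 60.4, 5.56 and 15.02 FPKM and 65.8, 8.95 and 23.4 FPKM, and Aurkb had 35.9, 5.62 and 11.3 FPKM and 48.4, 7.46 and 15.3 FPKM. All of them were higher in co-culture in every number. Cdc20 had 98.96, 10.00 and 26.5 FPKM and 108, 13.1 and 36.1 FPKM, Cenpa had 34.7, 7.28 and 15.6 FPKM and 47.8, 8.83 and 22.1 FPKM, and Tpx2 had 58.5, 8.40 and 19.9 FPKM and 62.7, 11.3 and 25.5 FPKM. Anln had 89.98, 13.8 and 29.3 FPKM and 99.5, 15.5 and 35.7 FPKM. Again the co-culture exceeded its control within each number for all of Cdc20, Cenpa, Tpx2 and Anln. Bub3, by contrast, had 43.5, 24.4 and 28.9 FPKM and 44.8, 25.3 and 30.6 FPKM, with the smallest differences within numbers, and the Pttg1 co-cultures had 12.2, 14.5 and 11.9 FPKM.

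At 72 h the numbers of the standard model pointed in different directions. No member was called (limma, 38 tested, 0% of all 12863 genes, voom also 0), none had an unadjusted p under 0.05, and the median log2 fold change was 0.30. Over the members, the median difference within numbers 1, 2 and 3 was -0.46, 0.98 and 0.48, lower in co-culture in replicate 1 and higher in the others. Without replicate 1 of both groups the median rose to 0.76, still with no call. It was 1.18 without control replicate 1, and turned to -0.11, -0.09 and -0.10 without control replicate 2, control replicate 3 and co-culture replicate 1.

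Top2a at 72 h had 87.96, 14.7 and 12.1 FPKM in the standard controls and 64.2, 33.3 and 20.5 FPKM in the co-cultures, and Mki67 had 23.9, 4.27 and 3.84 FPKM and 13.9, 11.3 and 5.64 FPKM. Replicate 1 was lower in co-culture for both, and replicates 2 and 3 were higher. The same held for Cdk1 (48.2, 12.3 and 10.9 FPKM in controls, 29.6, 19.4 and 14.8 FPKM in co-cultures), Ccnb1 (36.9, 2.93 and 4.03 and 24.9, 9.44 and 5.88 FPKM), Plk1 (42.3, 4.44 and 4.40 and 24.7, 11.3 and 7.99 FPKM) and Aurkb (24.9, 4.24 and 2.89 and 20.1, 9.83 and 6.93 FPKM). Cdc20 had 63.7, 11.2 and 7.96 FPKM and 47.5, 14.3 and 11.9 FPKM, Cenpa had 34.1, 4.14 and 4.73 FPKM and 26.97, 10.5 and 9.40 FPKM, Tpx2 had 42.2, 5.30 and 5.25 FPKM and 29.5, 11.2 and 8.22 FPKM, and Anln had 65.8, 9.97 and 10.9 FPKM and 42.8, 20.2 and 14.5 FPKM, each with the same crossing. Bub3, with 32.8, 27.2 and 26.2 FPKM in controls and 24.9, 23.9 and 25.7 FPKM in co-cultures, was lower in all 3 numbers without overlap (log2 fold change -0.20, SE 0.13, adjusted p = 0.80), and so was Pttg1, with 15.2, 17.9 and 13.6 FPKM and 9.88, 13.3 and 13.6 FPKM, whose groups touched at the digits given (-0.33, SE 0.18, adjusted p = 0.80). All co-culture libraries lay below all control libraries in 2 of 38 members and in 1258 of all 12863 genes. The largest positive values were those of Hmmr, a spindle protein (0.66, SE 0.80, adjusted p = 0.92), and Aurkb (0.65, SE 0.79, adjusted p = 0.92).

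Over time the standard model gave no call. Of 38 members, none was called between 24 h and 72 h in the controls (limma, 0% of all 12963 genes) or in the co-cultures (0% of all 12805 genes), none had an unadjusted p under 0.05 in either, and voom also called 0. The median log2 fold change was -0.73 in controls and -0.74 in co-cultures, with median standard errors of 0.92 and 0.66. In the controls 26 members were lower at 72 h in 3 of 3 numbers, against 14.6% of all genes. In the co-cultures 7 were, against 27.4% of all genes. The controls' largest value was that of Aurka (-1.12, SE 1.04, adjusted p = 1) and the co-cultures' that of Dlgap5 (-1.12, SE 0.66, adjusted p = 0.88), while Pttg1 was nearest to 0 in both (0.01 and -0.07). Without replicate 1 of both groups the medians were -0.92 and -0.54. The median in controls was -0.01 without replicate 1 at 24 h and -1.54 without replicate 1 at 72 h.

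Markers of other cell types also differed between the standard replicates, with replicate 1 the lowest. Summed over the 8 macrophage markers, control replicates 1, 2 and 3 had 45.6, 540.5 and 73.5 FPKM at 24 h and 39.9, 1349 and 182 FPKM at 72 h. Summed over the 4 adipocyte markers they had 74.5, 174 and 460.1 FPKM and 22.6, 380 and 347 FPKM. Replicate 1, in which the members summed to 1355 FPKM at 24 h and 995 FPKM at 72 h, was the lowest of the 3 in each of these marker sums. The co-cultures had 38.8, 396 and 60.5 FPKM of macrophage markers at 24 h and 84.6, 767 and 178 FPKM at 72 h, and 76.3, 181 and 416 and 57.8, 149.6 and 336 FPKM of adipocyte markers. In the inverse model at 72 h, all 4 adipocyte markers and 5 of the 7 tested macrophage markers were lower in co-culture (limma), against 9.57% of all genes that fell. Their sums were 58.6, 98.7 and 26.2 FPKM for adipocytes and 80.3, 81.9 and 56.4 FPKM for macrophages, below the 3 control libraries of that time given above. The part of these markers in the differences of the members was not tested.

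**Figure D5:**
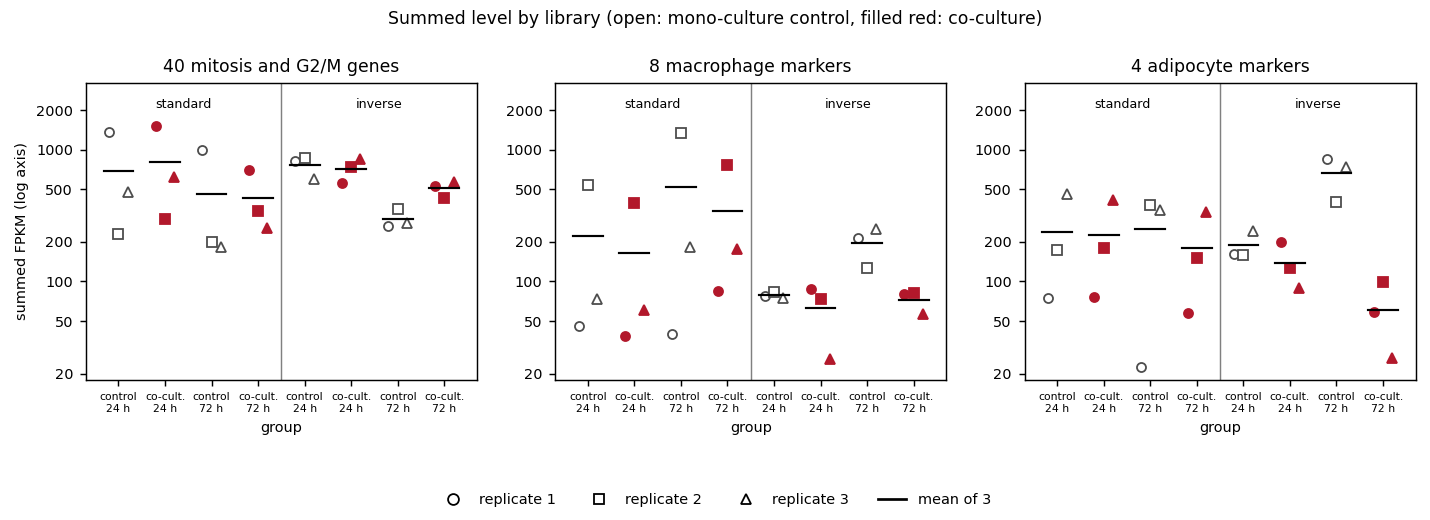
FPKM summed over the 40 members, over 8 macrophage markers and over 4 adipocyte markers is plotted on log axes for the 24 libraries, with a symbol for each replicate number, open for controls and red for co-cultures, and a line at the mean of 3. Replicate 1 of the standard model is highest in the first panel and low in the others, and at 72 h the inverse co-cultures are above their controls in the first panel and below them in the other panels.

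Epithelial and cancer cell markers were also summed in the libraries in which members rose. In inverse co-culture at 72 h their sum over 8 genes was 6.999, 4.77 and 10.7 FPKM, against 6.71, 2.93 and 2.50 FPKM in the controls. Krt19 rose among them (2.03, SE 0.40, adjusted p = 0.019, limma), Epcam and Cldn4 were listed at 0 in all 3 libraries of both groups, and Krt8, Krt18 and Cdh1 in all 3 controls. Without the third co-culture library, which had the highest sum, 8 members were called. The part of the epithelial and cancer cell markers in the rise of the members was not tested. Mesothelial markers summed to 34.6, 30.03 and 25.7 FPKM in co-culture and 33.9, 24.01 and 27.2 FPKM in controls.

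The co-culture effect was also compared between the models. None of the 39 members tested differed at 24 h or at 72 h (limma, 24 libraries, 0% of 14452 genes called at either time, no member with an unadjusted p under 0.05, voom also 0). The median difference, inverse minus standard, was -0.43 at 24 h and 0.45 at 72 h, with a median standard error of 0.96. Ttk had the largest difference at 72 h (1.28, SE 0.88, adjusted p = 1) and Plk1 at 24 h (-0.73, SE 1.13, adjusted p = 1). Without single libraries the median took values between -1.11 and 0.16 at 24 h. At 72 h these values lay between -0.32 and 0.94. The sign turned without standard control replicate 2 (0.16) or standard co-culture replicate 1 (0.12) at 24 h, and without standard control replicate 1 (-0.32) at 72 h. In the standard model the change of the effect from 24 h to 72 h likewise gave no call among 38 members (limma, 0% of 13694 genes, no member with an unadjusted p under 0.05, voom also 0, median -0.01), and its median took either sign without single libraries, from -0.65 (control replicate 1 at 24 h left out) to 0.86 (control replicate 1 at 72 h left out). The 18 rises of the inverse model at 72 h are therefore not shown to be particular to that model.

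The wider cell cycle was described by lists of other genes, chosen with earlier results of these data known. Of 44 further mitotic genes, 41 were tested in inverse co-culture at 72 h, and 12 rose while none fell, against 3.27% of all genes that rose (median log2 fold change 0.79). The largest were Pbk, a mitotic kinase (1.28, SE 0.19, adjusted p = 0.0081), Melk (1.07, SE 0.22, adjusted p = 0.021) and Kif4, a chromosome-bound kinesin (1.07, SE 0.23, adjusted p = 0.026; limma). In the controls over time 35 of 42 tested fell, against 9.05% of all genes. Of 30 DNA replication genes, 29 were tested and 4 rose in co-culture at 72 h (3.27% of all genes rose), namely the helicase subunit Mcm2 (1.00, SE 0.16, adjusted p = 0.011), Tyms, thymidylate synthase (0.97, SE 0.23, adjusted p = 0.033), Tk1, thymidine kinase (0.62, SE 0.15, adjusted p = 0.035), and Uhrf1, which reads hemimethylated DNA (1.11, SE 0.18, adjusted p = 0.011). None fell, the median was 0.41, and in the controls over time 19 of 29 fell (9.05% of all genes).

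Among 18 regulators of G2/M transcription, 17 were tested at 72 h in the inverse model, 1 rose and 2 fell, shares near those of all genes (3.27% rose and 9.57% fell). Foxm1, the forkhead factor of G2/M genes, had 13.4 ± 3.08 FPKM in controls and 23.2 ± 3.10 FPKM in co-cultures (SD, n = 3) and rose (0.78, SE 0.18, adjusted p = 0.032, limma). Rbl2, which encodes the DREAM subunit p130 (-0.52, SE 0.12, adjusted p = 0.033), and Rb1 (-0.61, SE 0.13, adjusted p = 0.022) fell. In the controls over time Foxm1, Mybl2, Lin9 and E2f7 fell and Rbl2 rose, a comparison that shares the controls at 72 h. Of all genes 9.05% fell there, and these falls were 47.1% of the calls, the rest being rises.

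Of 20 CDK inhibitors and p53 targets, all tested, 3 fell and none rose in inverse co-culture at 72 h, where 9.57% of all genes fell, so that the count is near the background. These were Cdkn1c, p57 (-1.55, SE 0.40, adjusted p = 0.042), Cdkn2c, p18 (-0.97, SE 0.23, adjusted p = 0.036), and Phlda3, a p53 target (-0.61, SE 0.11, adjusted p = 0.014; limma). Cdkn1a, which encodes p21, did not pass the test (0.02, SE 0.17, adjusted p = 0.94). Of 9 G1 cyclins and kinases, Myc rose (1.21, SE 0.20, adjusted p = 0.011) and the other 8 did not pass, where 3.27% of all genes rose. Of 15 subunits and coactivators of the anaphase-promoting complex, which are present throughout the cycle, 1 fell, Anapc5 (-0.44, SE 0.10, adjusted p = 0.030), and none rose, again against 9.57% of all genes that fell. None of these 6 lists had a gene called in either standard comparison or in the inverse model at 24 h. Of all genes, 0% were called in both standard comparisons and 2.47% in that inverse comparison. The absence of calls in the standard model therefore held for every gene tested.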

How the data were processed

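Poly(A) RNA of PSC had been sequenced paired-end in 24 libraries (8 groups of 3). Per the labels, the authors used CASAVA, HISAT2 2.0.5, featureCounts 1.5.0-p3 and DESeq2 1.20.0 with build GRCm38 (mm10), and deposited FPKM values per gene, 1 column a library (0 columns unused). With gene lengths from GENCODE M21, FPKM values were whole multiples of 1 fragment (tolerance 0.05 fragments) for 94.5% of expressed genes, and for between 97.9% and 98.56% of the low values of a library, which gave library totals from 15932737 to 24798761 fragments. These depths cover counting error only.

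Groups were taken from the sample labels. Genes above 1 FPKM in at least 3 libraries of a comparison were tested on log2(FPKM + 0.5) with limma 3.58.1 (moderated, trend) in R 4.3.3, with Benjamini-Hochberg adjustment over all genes tested, and called at an adjusted p under 0.05. Fold changes are on that scale, which understates changes of low genes. Tests were two-sided. The smallest exact permutation p of 3 against 3 libraries is 0.1, so no single-gene permutation test was used. The procedure was tested on simulated data. In the standard model same-numbered libraries deviated together (correlation of deviations from 0.32 to 0.77), a hint from the data and not from the labels, and in the inverse model they did not (-0.12 to 0.16).

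The members and all lists were chosen with earlier results of these data known. All members were accounted for by role. Values by library were given for the highest member of each role, for Mki67, Ccnb1 and Cdk1, and for members whose libraries varied by less than a factor of 3. Where members were called, all were to be named up to 10, or else the 5 largest, and the 3 smallest differences. Of the other lists, called genes were named up to 5, or else the 3 largest. Beyond this rule, the rest of the 18 called members and examples in comparisons without a call were named after their values were seen. Alternatives were another pseudocount, other filters and scaling, limma-voom on the recovered fragments, the replicate number as a block, all 24 libraries in 1 fit, each library left out, and, added after seeing the data, the standard model without replicate 1.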

Additional observations from a re-analysis of the deposited data

How the results depend on the processing

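Over 34 alternative settings, 186 of 196 recomputed counts of called members lay within 1.5 times the value reported, and no called value changed sign. Most of these counts were 0 in the main fits and stayed 0, which says little about stability. The 18 rises in inverse co-culture at 72 h stayed within that range in 7 of 14 settings. The 36 falls in inverse controls over time did so in 13 of 14. Without single libraries the median over the members changed sign for the co-culture effect of the standard model at both times and of the inverse model at 24 h, for the difference between the models at both times and for the change of the standard effect, none of which had a call. In the standard model such a fit breaks a same-numbered pair. The medians within numbers there, given above, were all positive at 24 h and of both signs at 72 h. The 18 members that rose in inverse co-culture at 72 h became 6 with no filter on low values, 7 with a replicate block, 0 with all 24 libraries in 1 fit and between 2 and 17 when single libraries were left out. With limma-voom on the recovered fragments, or with scaling by the median of gene ratios, 21 were called. Of the calls over all genes, 74.6% were falls in the main scaling and 47.3% in that other scaling. The 36 members that fell in inverse controls over time became 0 with all 24 libraries in 1 fit, and lay between 25 and 36 without single libraries. The change of the inverse effect between 24 h and 72 h gave 0 or 1 called members without single libraries. In the inverse model the replicate numbers marked no shared deviation, so the block there is only another setting, and in the standard model, where they did, the block called no member. The block changed no other count of members by over 1.5 times. Among recomputed values of single called members, 570 kept their side of the threshold and 180 no longer passed it. Of the recomputed medians over the members, which have no test, 170 moved by less than the spread and 14 by more. The cause of these changes was not tested. With 3 libraries a group, a standard error near 0.84 on the log2 scale in the standard model at 24 h limits what could be detected there.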
